A study of Mus musculus with 18 samples.

Results

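Oxidative phosphorylation was followed through 156 of the 55450 genes of the deposited count table. They were all genes that the table's pathway column places in the KEGG oxidative phosphorylation pathway, together with all genes of the mitochondrial chromosome. Of these, 119 were nuclear-encoded and 37 were mitochondria-encoded, and the sets are described apart. The rule itself used no expression value, but it was set with earlier results of these data known.

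The cells were mouse embryonic fibroblasts (MEF) from the ATCC, a cultured fibroblast that makes extracellular matrix. They were transfected with empty pcDNA3 (EV), with a Col1a1-miR-29b plasmid or with a CMV-miR-29b plasmid, and each was kept without TGF-β or given 20 ng/ml TGF-β for 24 h from 6 h after transfection. This gave 6 groups of 3 libraries. The Col1a1-miR-29b plasmid expresses EGFP and human miR-29b-1 from a rat Col1a1 promoter and mRFP1 from an SV40 promoter, and the CMV-miR-29b plasmid carries a CMV promoter in place of the Col1a1 promoter. The empty plasmid has no fluorescent protein or microRNA, and the plasmid mass per ml was higher for Col1a1-miR-29b than for CMV-miR-29b, so the microRNA cannot be told apart from the rest of the plasmid or from its mass. Total counts per library were 65898017 to 80332633 with a median of 74155860. Summed fibroblast markers were 1783 to 5561 CPM (counts scaled to a fixed library size) over the libraries. The sums were 0.849 to 3.03 CPM for endothelial, 8.8 to 13.4 for leukocyte and 0.267 to 3.05 for epithelial markers. Muscle markers summed to 0.63 to 1.66 CPM, adipocyte markers to 0.108 to 1.485 and pluripotent markers to 0.977 to 2.35. Most of the fibroblast sum came from Col1a1, Col1a2, Col3a1 and Vim, and Col1a1 was higher with TGF-β. In the same list Lum stood at 0 CPM in every library, Thy1 reached at most 0.114 CPM and Dcn at most 6.41 CPM. Ucp1, the uncoupling protein of brown fat, had 0 counts. Expression of the miR-29b-1 precursor was read from its row, Mir29b-1, where reads of the human precursor and the mouse gene are not told apart. It had 0 counts in all 6 EV libraries. With the Col1a1-miR-29b plasmid it had 0, 1 and 1 counts without TGF-β and 4, 2 and 6 with it, and with the CMV-miR-29b plasmid 110, 115 and 309 without and 214, 203 and 293 with it. The precursor was thus far more abundant with the CMV than with the Col1a1 plasmid. These counts come from poly(A) RNA and do not measure the mature microRNA. With the Col1a1-miR-29b plasmid they were near the floor and do not show how much of it entered the cells.

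Oxidative phosphorylation makes ATP at the inner mitochondrial membrane. Complexes I to IV pass electrons from NADH and succinate to oxygen and, except for complex II, pump protons, and complex V, the ATP synthase, uses the proton gradient. Most subunits are encoded in the nucleus, and the small mitochondrial chromosome encodes the rest of complexes I, III, IV and V with the ribosomal and transfer RNAs needed to translate them. The KEGG pathway also lists the V-ATPase, a proton pump of lysosomes and other acidic compartments.

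The nuclear-encoded set held 37 genes of complex I, 4 of complex II, 9 of complex III, 20 of complex IV, 15 of complex V, 4 for complex IV assembly, 24 of the V-ATPase and 6 others. The mitochondria-encoded set held 13 mRNA genes, 2 ribosomal RNA (rRNA) genes and 22 transfer RNA (tRNA) genes. Genes at 0 in every library numbered 3, and after the filter on low counts 109 nuclear-encoded and 36 mitochondria-encoded genes were tested. The 10 nuclear-encoded genes that were not tested were the stomach proton pump genes Atp4a, Atp4b and Atp12a, the V-ATPase genes Atp6v1b1, Atp6v1g3, Atp6v0d2 and Atp6v1e2, the complex IV isoforms Cox8b and Cox8c, and Ndufa11b. The mitochondrial gene not tested was mt-Ts1.

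The subunits expressed were those of the general rather than the tissue-restricted isoforms. In FPKM, a level scaled for length, Cox4i1 stood at 127 ± 10.4 in EV cells (SD, n = 3) and Cox4i2 at 0.209 ± 0.0966. Cox6a1 stood at 148 ± 4.55 FPKM and Cox6a2 at 2.23 ± 0.231. Cox6b1 stood at 216 ± 9.03 FPKM and the testis isoform Cox6b2 at 0.0651 ± 0.0364. Cox7a1, the heart and muscle isoform, stood at 6.36 ± 0.398 FPKM, below Cox7a2 at 56.6 ± 1.34 and Cox7a2l at 82.7 ± 24.2. Ndufa4 stood at 51.9 ± 13.9 FPKM against 0.428 ± 0.0832 for Ndufa4l2, an isoform known from hypoxia. Cox8a stood at 180 ± 5.27 FPKM, and Cox8b was listed at 0. With TGF-β, the lower isoform of each pair in EV cells was the same, and Cox7a2 and Cox7a2l, at 62.4 ± 12.4 and 61.5 ± 22.1 FPKM, did not differ beyond their SDs.

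The share of all counts on these genes is shown first, since it needs no model. The 85 nuclear subunit genes of complexes I to V took 0.782% to 0.817% of the counts of EV cells and 0.87% to 0.904% of those of untreated Col1a1-miR-29b cells. With TGF-β the shares were 0.71% to 0.774% in EV cells and 0.832% to 0.887% in Col1a1-miR-29b cells. Neither pair of groups overlapped. CMV-miR-29b cells ran from 0.79% to 0.859% without TGF-β and from 0.773% to 0.794% with it, and both ranges overlapped those of EV cells. The 13 mitochondrial mRNA genes took 2.09%, 2.38% and 2.27% of the counts in EV cells and 1.65%, 1.66% and 2.21% in Col1a1-miR-29b cells, where the groups overlapped. With TGF-β they took 2.32%, 2.13% and 2.52% in EV cells and 1.94%, 1.78% and 1.87% in Col1a1-miR-29b cells, which were lower without overlap. Some of these genes share counts with near-identical nuclear copies, described further on. With the copies' counts added, the shares with TGF-β were 2.61%, 2.14% and 2.64% in EV cells. They were 2.12%, 2.33% and 2.15% in Col1a1-miR-29b cells, and the groups overlapped. Without TGF-β the sums were 2.28%, 2.45% and 2.29% in EV cells. In Col1a1-miR-29b cells they were 2.11%, 2.07% and 2.25%, lower without overlap. The 2 mitochondrial rRNA genes rose above EV cells again, at 0.363% to 0.4% against 0.281% to 0.328% without TGF-β and 0.356% to 0.368% against 0.257% to 0.308% with it. These libraries were made from poly(A) RNA, so an rRNA or tRNA level counts only molecules that were captured.

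**Figure D1:**
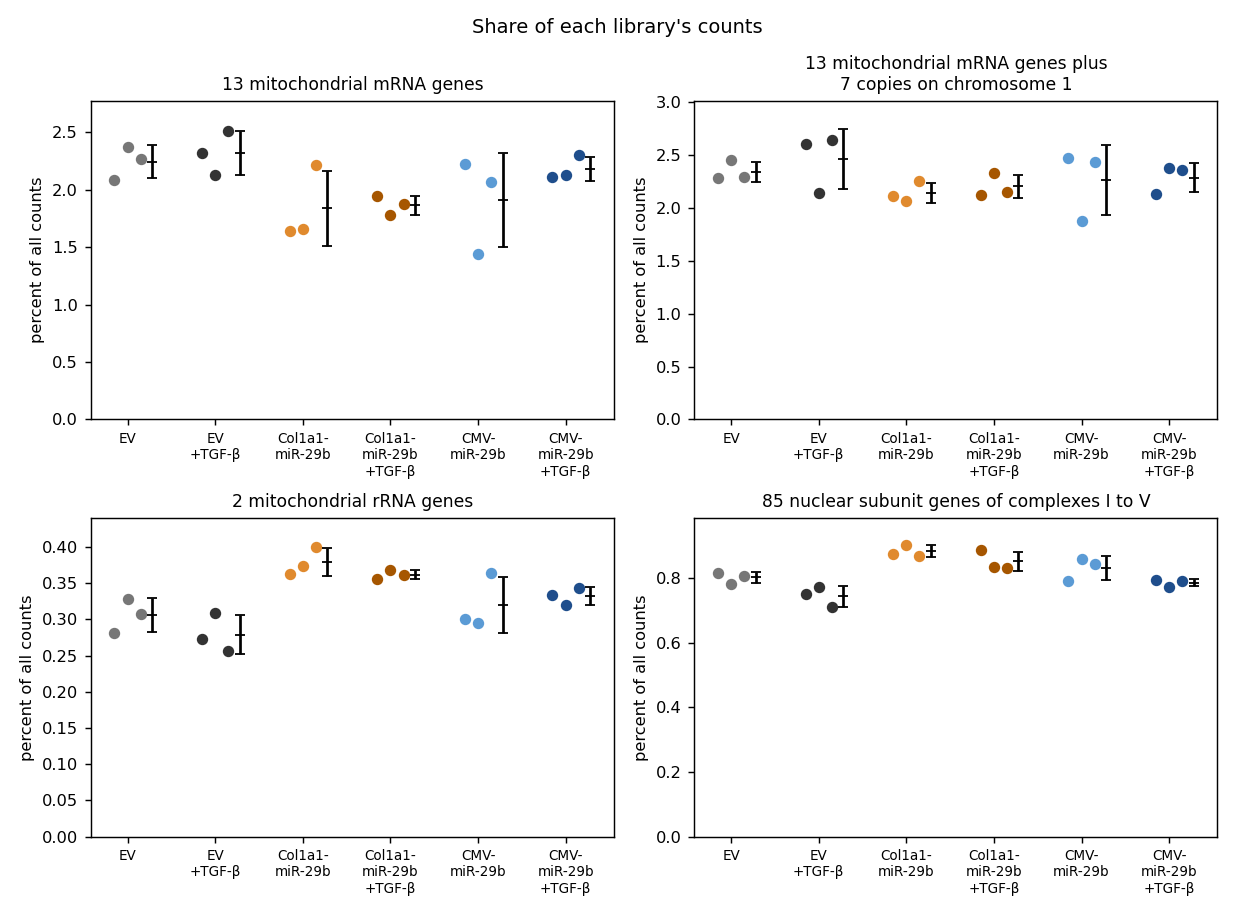
Percent of each library's counts (y axis) on 4 sets of genes, with 1 point per library and the mean ± SD (n = 3) beside each of the 6 groups (x axis). The nuclear subunit genes and the rRNA genes lay higher in the Col1a1-miR-29b groups than in the EV groups, and the shortfall of the mRNA genes there, 1.65% against 2.09% for the lowest libraries without TGF-β, narrowed to 2.07% against 2.28% once the counts of 7 nuclear copies were added.

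Differences between groups were tested with edgeR's quasi-likelihood test over 21161 genes, with Benjamini-Hochberg adjustment over all of them. A gene was taken to have changed at an adjusted p under 0.05. CPM values below are scaled by TMM, a normalization that sets the bulk of genes equal between libraries. The median log2 fold change of all genes tested lay within 0.02 of 0 in each comparison named here. The study's methods describe repeated experiments for each group, but no source used here says whether these were separate cultures, so the p-values measure the spread between these libraries, which may in part be technical.

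TGF-β changed few of the genes. Of 109 nuclear-encoded genes, 1 rose and 2 fell in EV cells, 1 rose and 2 fell with the Col1a1-miR-29b plasmid, and 1 rose and 3 fell with the CMV-miR-29b plasmid. Of all genes, 3.88% rose and 2.01% fell in EV cells, 3% and 1.32% with Col1a1-miR-29b, and 3.08% and 1.87% with CMV-miR-29b. The nuclear-encoded genes had a median log2 fold change of −0.08 in EV, −0.04 in Col1a1-miR-29b and −0.07 in CMV-miR-29b cells, and 83, 70 and 87 of them lay below 0.

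The gene that rose was the same with each plasmid. Atp6v1g1 (chromosome 4, 63544772 to 63550750 in GRCm38), a G subunit of the V-ATPase stalk, stood at 211, 209 and 202 CPM in EV cells and at 274, 258 and 275 CPM with TGF-β. Col1a1-miR-29b cells held 210, 200 and 205 CPM without and 254, 266 and 244 CPM with TGF-β, and CMV-miR-29b cells held 204, 198 and 206 CPM without and 251, 263 and 255 CPM with it. The groups did not overlap with any of the plasmids. Its log2 fold change was 0.38 ± 0.04 (SE, adjusted p = 1.2e-05) with EV, 0.31 ± 0.04 (adjusted p = 0.000103) with Col1a1-miR-29b and 0.34 ± 0.04 (adjusted p = 4.29e-05) with CMV-miR-29b. The other 19 V-ATPase genes tested did not pass the threshold in these comparisons.

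Genes that fell with TGF-β belonged to complex I and to complex IV assembly. Ndufv3, an accessory subunit of the NADH-oxidizing arm of complex I, stood at 201, 186 and 177 CPM in EV cells and 158, 156 and 141 CPM with TGF-β, without overlap. It fell by 0.31 on the log2 scale in EV cells (SE 0.07, adjusted p = 0.00935) and by 0.24 in CMV-miR-29b cells (adjusted p = 0.0477). In Col1a1-miR-29b cells it stood at 187, 198 and 166 CPM without and 172, 173 and 158 CPM with TGF-β, where the groups overlapped and the fall was not called. The difference between its responses in Col1a1-miR-29b and EV cells was 0.18 ± 0.09 and was not called (adjusted p = 1). Cox15, which makes the heme A of complex IV, stood at 67.4, 66.7 and 64.9 CPM in EV cells and 57.6, 59.5 and 58.2 CPM with TGF-β. It fell by 0.18 in EV cells (adjusted p = 0.0207) and by 0.22 in Col1a1-miR-29b cells (adjusted p = 0.00792). Ndufb2, a membrane arm subunit, fell by 0.24 in Col1a1-miR-29b cells (adjusted p = 0.0411). In CMV-miR-29b cells, Ndufb8 of the same arm fell by 0.19 (adjusted p = 0.0344) and Cox11, a copper chaperone for complex IV, fell by 0.38 (adjusted p = 0.0485). No nuclear-encoded gene differed in its TGF-β response between a miR-29b plasmid and EV by edgeR, where 3 and 6 of 109 had an unadjusted p under 0.05, nor by DESeq2 or limma. Among all 21161 genes, 961 had such a p for Col1a1-miR-29b and 1129 for CMV-miR-29b.

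No mitochondria-encoded gene changed with TGF-β by edgeR with any plasmid, nor by DESeq2 or limma. Of 36 tested, 3, 1 and 3 had an unadjusted p under 0.05 in EV, Col1a1-miR-29b and CMV-miR-29b cells. Among all 21161 genes, 3597, 3025 and 3310 did. The 13 mRNA genes had log2 fold changes from −0.08 to 0.39, from −0.10 to 0.12 and from −0.13 to 0.59, in counts that several of them share with nuclear copies, as described further on. With the copies' counts added, the median of the 13 in CMV-miR-29b cells moved from 0.20 to 0.00016, with mt-Nd4l moving from 0.59 to 0.07 and mt-Co3 from 0.56 to 0.02. In EV cells it moved from 0.16 to 0.17 and under the Col1a1-miR-29b plasmid from 0.0091 to 0.03.

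The Col1a1-miR-29b plasmid was compared with EV next. Without TGF-β, 11 of 109 nuclear-encoded genes were higher in Col1a1-miR-29b cells and 0 lower, against 2.57% higher and 3.7% lower among all genes. By edgeR 41 of 109 had an unadjusted p under 0.05, against 4560 of all 21161 genes. DESeq2 called 21 higher and 0 lower, and its calls over all genes are not given here. With TGF-β, 35 were higher and 0 lower, against 5.31% and 7.63% of all genes. DESeq2 called 38 higher and 1 lower. The median log2 fold change of the 109 genes was 0.11 without TGF-β and 0.15 with it, with 81 and 89 genes above 0. Both comparisons had the same direction but different counts of calls, and the difference between them was not called for any of the genes.

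By complex, the genes called higher with TGF-β were 13 of 36 tested in complex I, 2 of 4 in complex II, 4 of 9 in complex III, 7 of 18 in complex IV, 4 of 15 in complex V, 1 of 4 in complex IV assembly, 3 of 20 in the V-ATPase and 1 of 3 others. The changes were small, and the largest among them stayed under 0.4 on the log2 scale. Atp5j2, the f subunit of ATP synthase, stood at 106, 109 and 99.4 CPM in EV cells with TGF-β and 114, 146 and 153 CPM in Col1a1-miR-29b cells with TGF-β. Ndufs6, a zinc-binding subunit of complex I, stood at 27.8, 30.3 and 25 CPM against 35.8, 38.1 and 34. Cox5b, a subunit of complex IV, stood at 51.5, 58.4 and 49.3 CPM against 65.6, 72.9 and 67.4. None of the 3 overlapped between groups. Their log2 fold changes were 0.39 ± 0.11 (adjusted p = 0.0271) for Atp5j2, 0.38 ± 0.09 (adjusted p = 0.0144) for Ndufs6 and 0.37 ± 0.11 (adjusted p = 0.0389) for Cox5b.

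**Figure D2:**
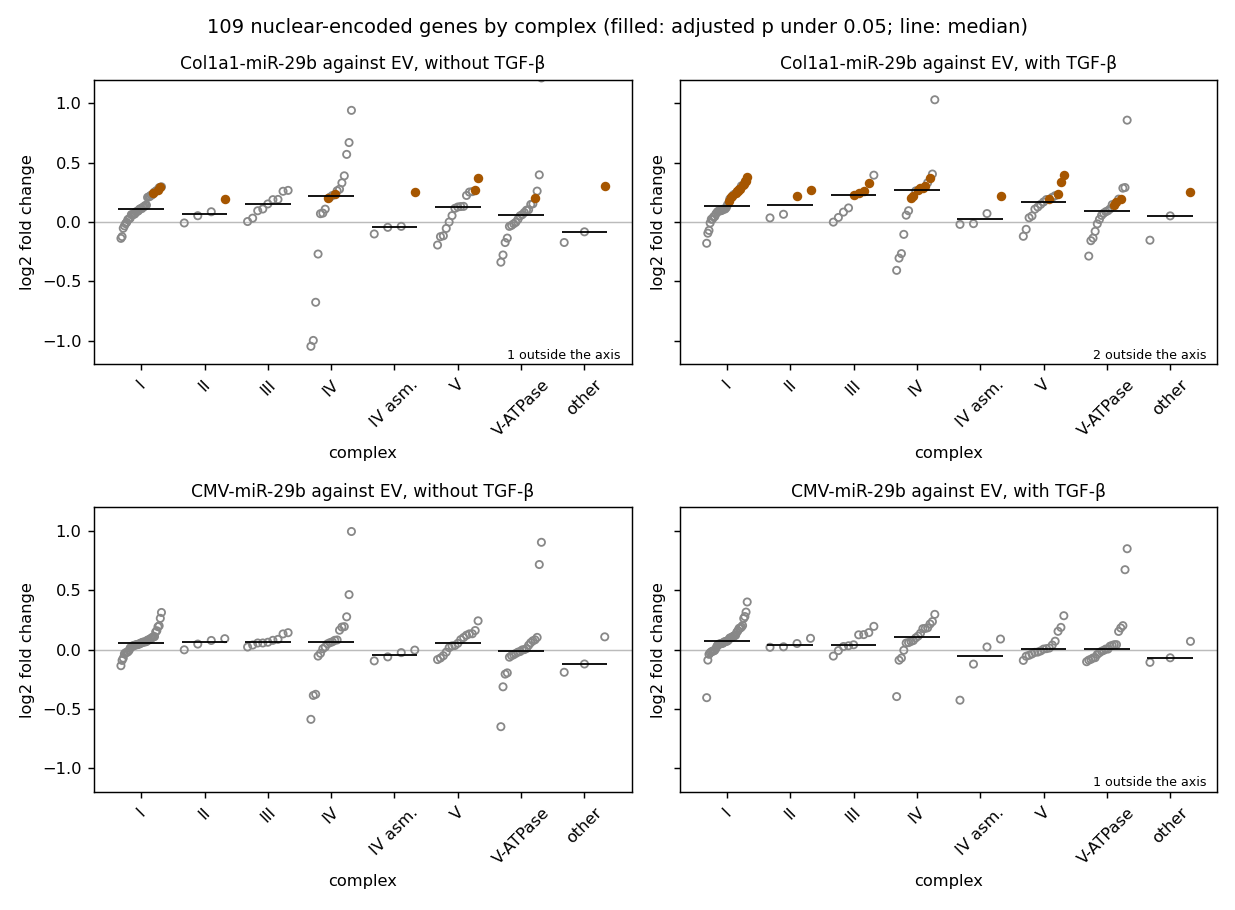
Log2 fold change against EV (y axis) of each nuclear-encoded gene tested, by complex (x axis), for both miR-29b plasmids without and with TGF-β. Filled points passed the threshold and lines are medians, and genes beyond the axis are counted in the panels. Called genes were 11 and 35 for Col1a1-miR-29b and 0 for CMV-miR-29b, and the points of complexes I to V in Col1a1-miR-29b cells with TGF-β lay mostly above 0.

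Genes called in both comparisons of Col1a1-miR-29b with EV numbered 9. They were Ndufa8 and Ndufb6 of complex I, Sdhd, a membrane anchor of complex II, Cox5a and Cox7b of complex IV, Cox15, Atp5k, the e subunit of ATP synthase, Tcirg1 of the V-ATPase and Ppa1, the cytosolic pyrophosphatase. Atp5g1, a gene for the c subunit of the ATP synthase ring, and Ndufb2 were called without TGF-β alone. Ppa1 had log2 fold changes of 0.30 ± 0.04 (adjusted p = 0.00143) without TGF-β and 0.25 ± 0.04 (adjusted p = 0.00132) with it. Atp5k stood at 54.7, 49.3 and 52.8 CPM in EV cells and 69, 65.7 and 68.5 CPM in Col1a1-miR-29b cells, which is 0.37 ± 0.09 higher on the log2 scale (adjusted p = 0.0242). With TGF-β it stood at 49.1, 46.8 and 40.5 CPM in EV cells and 63.2, 53.5 and 55.5 CPM in Col1a1-miR-29b cells. Ndufb6 was 0.29 ± 0.07 higher on the log2 scale without TGF-β (adjusted p = 0.0186). The EV libraries also serve as the reference for CMV-miR-29b, so the comparisons share controls.

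Most of these calls were not kept in fits with terms for transcript length and GC content. Whether such terms also take up a change of short genes in the cells was not tested. The nuclear-encoded genes tested had a median longest transcript of 1363 bases, against 2564 bases for all genes tested, and a median GC content of 50.29% against 49.31%. With a smooth term for length and GC content fitted in each library, 4 nuclear-encoded genes were higher and 2 lower in TGF-β-treated Col1a1-miR-29b cells, where the median over the set became 0.03. Without TGF-β, 4 were higher and 0 lower, and the median became −0.01. Calls over all genes with these terms are not given here, so a general loss of calls cannot be told apart. Of the 35 genes called with TGF-β, 3 were still called, Cox15, Ndufb7 and Atp6v1d, and 33 still had a log2 fold change above 0. Cox15 had a log2 fold change of 0.25 with these terms (adjusted p = 0.00403) and 0.22 ± 0.04 without them (adjusted p = 0.00466). Without TGF-β, Cox15, Ndufb2 and Ppa1 were still called, Cox15 at 0.28 with the terms and 0.26 without them. Atp5k moved from 0.34 to 0.10 and Ndufs6 from 0.38 to 0.16, both no longer called. The rise of Atp6v1g1 with TGF-β was called with the terms under all 3 plasmids, at 0.44 for EV, 0.35 for Col1a1-miR-29b and 0.31 for CMV-miR-29b.

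**Figure D3:**
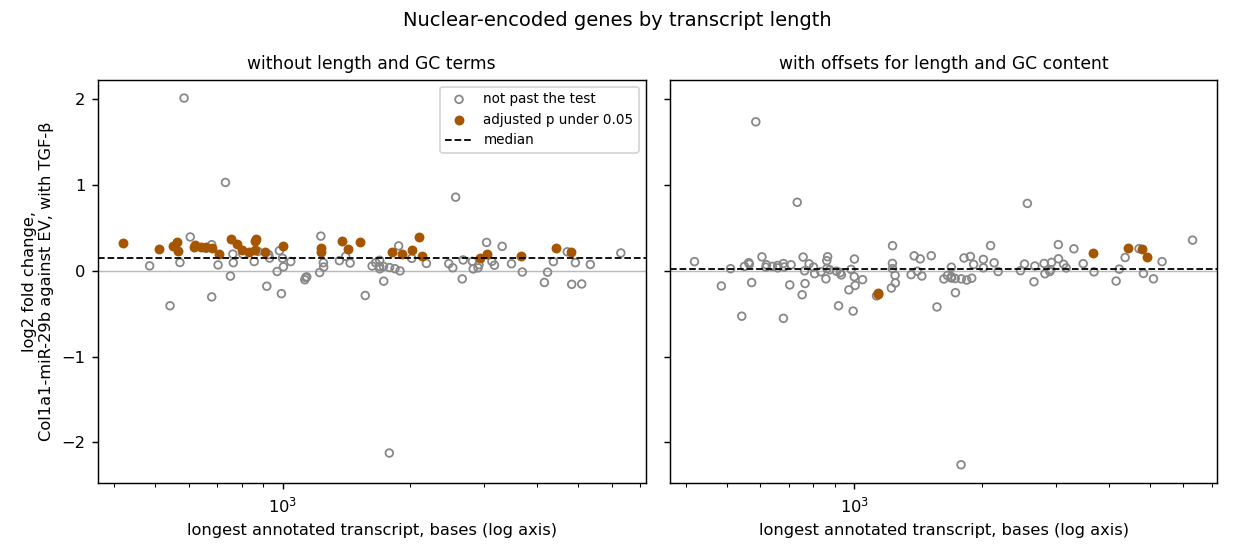
Log2 fold change of the nuclear-encoded genes in Col1a1-miR-29b against EV cells with TGF-β (y axis) by the length of the longest annotated transcript (x axis, log scale), without (left) and with (right) terms for length and GC content. Called genes, filled, were 35 on the left, many of them short, and 6 on the right, and the dashed median fell from 0.15 to 0.03.

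Leaving out 1 library lowered both counts. With TGF-β, 9 genes were called without EV replicate e, 20 without EV replicate c, 30 without EV replicate d, 11 without Col1a1-miR-29b replicate c, 19 without Col1a1-miR-29b replicate d and 26 without the unlettered Col1a1-miR-29b library. Without TGF-β, 2 were called without EV replicate c or d or Col1a1-miR-29b replicate d, and 5 without EV replicate e, Col1a1-miR-29b replicate c or the unlettered library. Without the 2 Col1a1-miR-29b libraries whose columns carry a letter found in no sample title, 22 genes were higher with TGF-β and 4 without. Calls over all genes in these fits are not given here.

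The promoters of the genes called higher were read for 2 motifs known from genes of the respiratory chain, the NRF1 core GCATGCGC and the ETS core CCGGAAGT, on both strands. Windows ran from 250 bases before to 50 bases after each start in RefSeq (GRCm38.p6). Of 27025 genes with such a window, coding and non-coding, 3.05% held the NRF1 core and 4.31% the ETS core. Of the 85 nuclear subunit genes of complexes I to V, 68 had a window, and 14.7% of these held the NRF1 core and 7.35% the ETS core. Of the 35 genes called higher in Col1a1-miR-29b cells with TGF-β, 33 had a window, with 5 holding the NRF1 core and 4 the ETS core, against 7 and 5 of 54 genes tested but not called. The share is not given for all 119 genes, since 92 had a window. Of the 9 genes called in both comparisons, 6 held neither core in their window. The windows of the other 3 are shown, 2 with the NRF1 core and 1 with the ETS core, the core in capitals. All 3 genes lie on the minus strand and are printed 5′ to 3′ in the direction of transcription.
Ndufa8 (chr2:36049289-36049588): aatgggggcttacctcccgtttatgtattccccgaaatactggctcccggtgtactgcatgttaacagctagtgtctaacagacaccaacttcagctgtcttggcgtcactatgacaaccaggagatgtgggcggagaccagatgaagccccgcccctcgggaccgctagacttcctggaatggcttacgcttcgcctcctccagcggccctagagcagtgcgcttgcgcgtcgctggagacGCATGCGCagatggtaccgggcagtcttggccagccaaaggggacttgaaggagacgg
Atp5k (chr5:108434350-108434649): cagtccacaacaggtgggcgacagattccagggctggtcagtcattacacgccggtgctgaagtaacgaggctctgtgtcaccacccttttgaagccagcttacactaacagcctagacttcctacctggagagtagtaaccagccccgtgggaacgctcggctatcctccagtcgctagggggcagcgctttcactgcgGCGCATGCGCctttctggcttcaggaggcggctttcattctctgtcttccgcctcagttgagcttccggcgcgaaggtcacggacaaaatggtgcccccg
Cox15 (chr19:43752951-43753250): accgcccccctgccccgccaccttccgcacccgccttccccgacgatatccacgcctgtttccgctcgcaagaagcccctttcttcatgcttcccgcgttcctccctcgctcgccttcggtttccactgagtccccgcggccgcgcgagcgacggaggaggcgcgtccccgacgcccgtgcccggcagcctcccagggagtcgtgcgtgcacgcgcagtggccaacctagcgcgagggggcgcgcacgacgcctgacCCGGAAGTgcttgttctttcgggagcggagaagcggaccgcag
In Atp5k the capitals run over 10 bases, since the core and its reverse complement overlap there. A match is a description of the letters and does not show binding.

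MiR-29b acts by pairing its seed, bases 2 to 8, with sites in 3′ untranslated regions (UTR). The mouse mature sequence from RefSeq is shown with its seed in capitals, above 3 of the matching sites in nuclear-encoded genes that were higher in Col1a1-miR-29b cells with TGF-β, 2 in Atp6v1d and 1 in Ndufb8, with the bases that pair with the seed in capitals.
mmu-miR-29b-3p: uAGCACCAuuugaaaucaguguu
Atp6v1d site 1: tttaaaacTGGTGCTacagagcc
Atp6v1d site 2: taaagctcTGGTGCTtaaactgt
Ndufb8 site: actgcatgTGGTGCTcagacatt
The longest annotated 3′ UTR of each of the 109 genes tested was searched for TGGTGCT. It was found in 7 of them, or 6.42%, against 14.8% of 14377 genes tested. The UTRs of the nuclear-encoded genes were short, with a median of 288 bases against 1096. Besides Atp6v1d and Ndufb8, the genes with a match were Atp5g1 with 2 sites, Atp6v1a, Cox10, Cox11 and Sdhc. Atp6v1d was 0.17 ± 0.04 higher (adjusted p = 0.0155) and Ndufb8 0.17 ± 0.05 higher (adjusted p = 0.0268) in Col1a1-miR-29b cells with TGF-β, and the other 5 were not called, with log2 fold changes from −0.02 to 0.22. None of the 7 was called lower by edgeR in a comparison of a plasmid with EV. In CMV-miR-29b against EV cells with TGF-β, Cox11 was at −0.43 (edgeR adjusted p = 0.171). It was called there in 1 of 21 alternative fits. The other genes with a match ran from −0.05 for Atp5g1 to 0.07 for Ndufb8 in that comparison.

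For CMV-miR-29b against EV, 0 of 109 nuclear-encoded genes were called without TGF-β and 0 with it by edgeR, with 12 at an unadjusted p under 0.05 in each. Among all genes, 0.00473% rose and 0% fell without TGF-β, and 0.00945% rose and 0% fell with it. An unadjusted p under 0.05 was found for 1156 of all 21161 genes without TGF-β and 2531 with it. With TGF-β the shares of the set and of all genes at that p were near each other. DESeq2 called 0 without TGF-β and 2 with it, and limma called 0. The median log2 fold changes were 0.05 in both. The genes with the smallest p did not pass. They were Cox5a (0.19, adjusted p = 0.69), Ndufb8 (0.15, adjusted p = 0.812) and Ndufa1 (0.26, adjusted p = 0.819) without TGF-β, and Cox11 (−0.43, adjusted p = 0.171), Ndufa1 (0.32, adjusted p = 0.198) and Ndufc2 (0.20, adjusted p = 0.211) with it. Col1a1-miR-29b and CMV-miR-29b cells were not compared with each other.

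Genes around the pathway were read from 4 lists, in the fit without terms for length and GC content. Their values with these terms are not given here. Of 42 tested genes for the assembly of the complexes, 2 were higher with Col1a1-miR-29b without TGF-β and 6 with it, and 0 lower. These are 4.76% and 14.3% of the list, against 2.57% and 5.31% higher among all genes. Tmem126b and Pet100, assembly factors of complexes I and IV, were higher in both, Tmem126b by 0.26 ± 0.06 (adjusted p = 0.0165) and 0.34 ± 0.06 (adjusted p = 0.00172), Pet100 by 0.35 ± 0.10 (adjusted p = 0.0468) and 0.44 ± 0.10 (adjusted p = 0.00886). Coa5 and Cox14, both for complex IV, were called with TGF-β at 0.18 and 0.35. Of 20 tested genes for mitochondrial biogenesis, 0 were higher and 2 lower in each comparison, which is 10% of the list against 3.7% and 7.63% lower among all genes. With TGF-β the shares were near each other. Without TGF-β these were Gabpa, an ETS-family activator of respiratory genes, at −0.18 ± 0.04 (adjusted p = 0.0176) and Tfb1m, an rRNA methyltransferase of mitochondria, at −0.44 ± 0.12 (adjusted p = 0.0441). With TGF-β they were the coactivators Ppargc1a at −0.75 ± 0.22 (adjusted p = 0.0362) and Ppargc1b at −0.80 ± 0.21 (adjusted p = 0.0229), both expressed at a low mean of 2.82 and 2.47 CPM. Of 15 genes for mitochondrial RNA, Pnpt1, the mitochondrial polynucleotide phosphorylase, was higher by 0.22 without and 0.17 with TGF-β, and Lrpprc, which stabilizes mitochondrial mRNA, was lower with TGF-β at −0.18 ± 0.05 (adjusted p = 0.0223). In this list 6.67% were thus higher in each comparison, and 6.67% lower with TGF-β. Of 14 genes of the citric acid cycle, Ogdh, a subunit of 2-oxoglutarate dehydrogenase, was lower at −0.25 in both, and Idh3a was higher with TGF-β at 0.13. That is 7.14% lower in each comparison and 7.14% higher with TGF-β. Each share of these last lists stands for 1 gene. With TGF-β they were near the 5.31% higher and 7.63% lower among all genes, and without it all genes had 2.57% higher and 3.7% lower. In CMV-miR-29b cells 0 genes of the lists differed from EV, and with TGF-β there Lrpprc (−0.17) and Ogdh (−0.20) fell. The medians of the lists in Col1a1-miR-29b cells ran from 0.01 to 0.10.

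Few mitochondria-encoded genes were called in the same comparisons. Without TGF-β, 2 of 36 genes in Col1a1-miR-29b cells were higher than in EV cells and 0 lower, and with TGF-β 2 were higher and 3 lower, with 15 and 18 at an unadjusted p under 0.05. These are 5.56% higher without TGF-β, and 5.56% higher and 8.33% lower with it. Among all genes 2.57% were higher and 3.7% lower without TGF-β, and 5.31% and 7.63% with it, so the shares with TGF-β were near those of all genes. Of all 21161 genes, 4560 had an unadjusted p under 0.05 without TGF-β and 5518 with it. No mRNA gene was called in either. The smaller rRNA, mt-Rnr1 (mitochondrial chromosome, 70 to 1024), stood at 1846, 2140 and 1956 CPM in EV cells and 2412, 2419 and 2654 CPM in Col1a1-miR-29b cells. With TGF-β it stood at 1744, 1948 and 1624 CPM against 2291, 2492 and 2316. All 6 Col1a1-miR-29b libraries lay above all 6 EV libraries. Its log2 fold change was 0.33 ± 0.09 (adjusted p = 0.0362) without and 0.42 ± 0.09 (adjusted p = 0.00614) with TGF-β. With terms for length and GC content these were 0.19 (adjusted p = 0.0863) and 0.34 (adjusted p = 0.0049). The larger rRNA, mt-Rnr2, was 0.19 and 0.20 higher and was not called (adjusted p = 0.112 and 0.0612). With the terms it was 0.12 without TGF-β (adjusted p = 0.206) and 0.19 with it, where it was called (adjusted p = 0.0297).

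Of the 13 mRNA genes, 10 were lower than in EV cells without TGF-β and 11 with it, where 8 had an unadjusted p under 0.05. With TGF-β the log2 fold changes were −0.93 ± 0.31 for mt-Nd4l, −0.88 ± 0.29 for mt-Nd3, −0.85 ± 0.28 for mt-Atp8, −0.76 ± 0.26 for mt-Atp6, −0.69 ± 0.27 for mt-Co3 and −0.62 ± 0.24 for mt-Co2. These genes for complexes I, V and IV are neighbours on the chromosome. Genes outside this stretch moved less, with mt-Nd4 at −0.41, mt-Cytb at −0.30, mt-Nd1 at −0.25, mt-Co1 at −0.24, mt-Nd2 at −0.19, mt-Nd5 at 0.06 and mt-Nd6 at 0.15. The smallest adjusted p among them was 0.0587, for mt-Nd3. With terms for length and GC content 4 of them passed with TGF-β, mt-Nd3 (adjusted p = 0.0325), mt-Atp6 (adjusted p = 0.0334), mt-Nd4l (adjusted p = 0.0365) and mt-Atp8 (adjusted p = 0.0393). Without TGF-β the same terms gave 2 that passed, mt-Co1 at −0.38 (adjusted p = 0.0387) and mt-Atp8 at −0.89 (adjusted p = 0.0427), against −0.28 and −0.68 without the terms.

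The genes of this stretch have near-identical copies in the nuclear genome. Every stretch of 50 bases of the mitochondrial transcripts was looked up in all other annotated transcripts (GENCODE release M21, GRCm38). For mt-Co2, 100% of its stretches were also in a nuclear gene, for mt-Co3 99.9%, mt-Atp6 99.5%, mt-Nd4l 98.8%, mt-Nd3 98%, mt-Nd4 62.2% and mt-Co1 51.1%. For mt-Nd2 the share was 8.19%, for mt-Nd5 7.61% and for mt-Rnr2 1.04%, and it was 0% for mt-Rnr1, mt-Nd1, mt-Nd6, mt-Cytb and the tRNA genes. For mt-Atp8 it was 0% too, as no annotated copy covers it, though it lies between mt-Co2 and mt-Atp6. The 7 genes with the highest shares each have an unprocessed pseudogene on chromosome 1, from 24611535 to 24616197. The copies of mt-Co2 (Gm28661), mt-Atp6 (Gm10925), mt-Co3 (Gm28437), mt-Nd4 (Gm28439) and mt-Nd4l (Gm10222) had 0 mismatches over 681, 678, 783, 876 and 294 aligned bases. The copy of mt-Nd3 (Gm28438) had 1 mismatch over 345 bases, and its first 90 bases are shown beside the mitochondrial gene with the differing base in capitals.
mt-Nd3: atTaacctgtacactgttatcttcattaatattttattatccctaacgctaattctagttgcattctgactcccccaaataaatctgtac
Gm28438: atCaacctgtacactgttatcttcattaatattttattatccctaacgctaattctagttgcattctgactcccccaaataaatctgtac
A read without that base could come from either gene.

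The counts of these pairs were divided between the mitochondrial gene and its copy in shares that differed widely between libraries. The counts on the 7 copies ran from 7916 in an EV library with TGF-β to 407679 in a Col1a1-miR-29b library with TGF-β. Of the summed counts of mt-Co2 and its copies, 15.4%, 6.68% and 1.56% were listed under the copies in EV cells, and 49.8%, 40.6% and 3.24% in Col1a1-miR-29b cells. With TGF-β the shares were 22.3%, 0.966% and 10.4% in EV cells and 18%, 49.8% and 32% in Col1a1-miR-29b cells. In CMV-miR-29b cells they were 21.4%, 46.4% and 32.8% without and 1.33%, 28.5% and 4.79% with TGF-β. Libraries of 1 group thus lay at opposite ends of the range, and the highest shares were in 2 Col1a1-miR-29b libraries, 1 without and 1 with TGF-β. In most libraries mt-Co2, mt-Co3, mt-Atp6, mt-Nd3 and mt-Nd4l had like shares, and in 1 CMV-miR-29b library with TGF-β mt-Co2 and mt-Atp6 stood apart from the others.

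**Figure D4:**
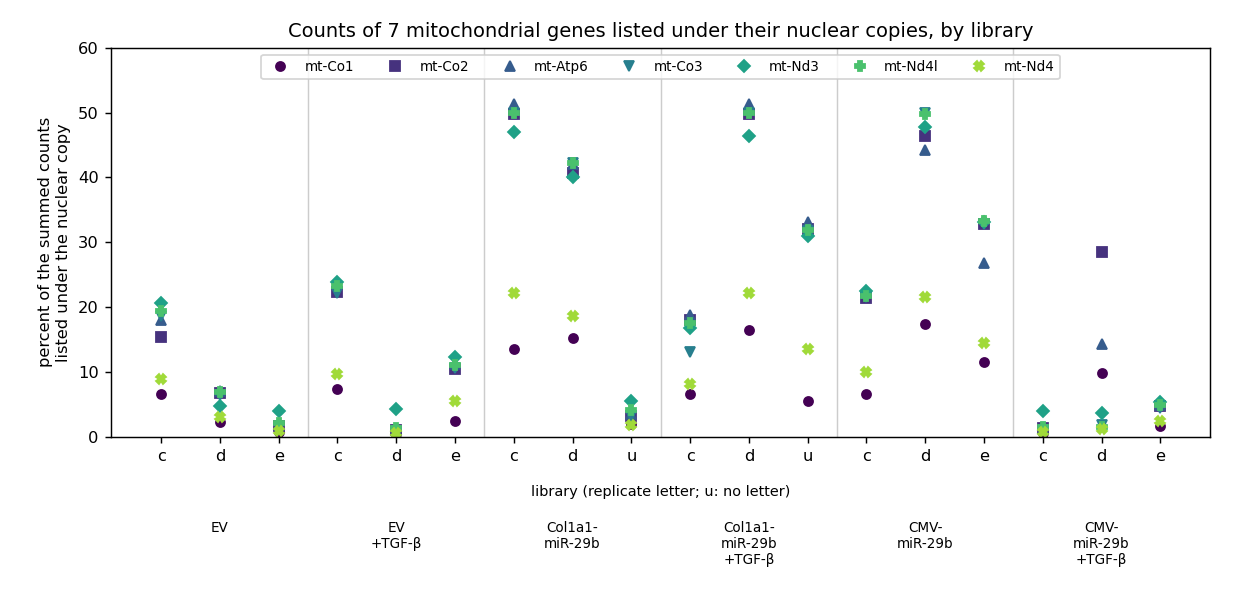
Percent of the summed counts of a mitochondrial gene and its nuclear copies that was listed under the copies (y axis), for 7 genes (symbols) in each of the 18 libraries (x axis, by group). For mt-Co2 the share ran from 0.966% to 49.8% and spread widely within each group.

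With the copies' counts added to the mitochondrial genes, a choice made after the data were seen, the differences shrank. Deposited mt-Co2 stood at 3733, 3526 and 4291 CPM in EV cells with TGF-β and 3150, 1916 and 2446 CPM in Col1a1-miR-29b cells with TGF-β, without overlap. Summed with its copies it stood at 4804, 3561 and 4790 CPM against 3842, 3817 and 3595 CPM, where the groups overlapped. Its log2 fold change moved from −0.62 ± 0.24 to −0.23 ± 0.10. For mt-Atp6 it moved from −0.76 to −0.32, for mt-Co3 from −0.69 to −0.30, for mt-Nd3 from −0.88 to −0.55 and for mt-Nd4l from −0.93 to −0.52. Without TGF-β, mt-Co2 moved from −0.62 to −0.20, mt-Atp6 from −0.65 to −0.23 and mt-Nd3 from −0.40 to −0.02. For mt-Atp8, which has no annotated copy to add, it stayed at −0.85. The bases on chromosome 1 between the copies of mt-Atp6 (ending at 24614651) and mt-Co2 (starting at 24614885) were not searched. A split of mt-Atp8 counts with an unannotated copy there could thus not be seen. No mRNA gene was called in either form, and with TGF-β 5 of the 13 sums had an unadjusted p under 0.05 in place of 8. The median of the 13 mRNA genes moved from −0.41 to −0.26 with TGF-β and from −0.28 to −0.14 without it, and 11 and 10 of 13 stayed below 0. The rise of mt-Rnr1, which has no annotated copy, was not touched (0.42 ± 0.09, adjusted p = 0.006). The sum cannot tell transcripts of the copies, if there are any, from those of the mitochondria.

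**Figure D5:**
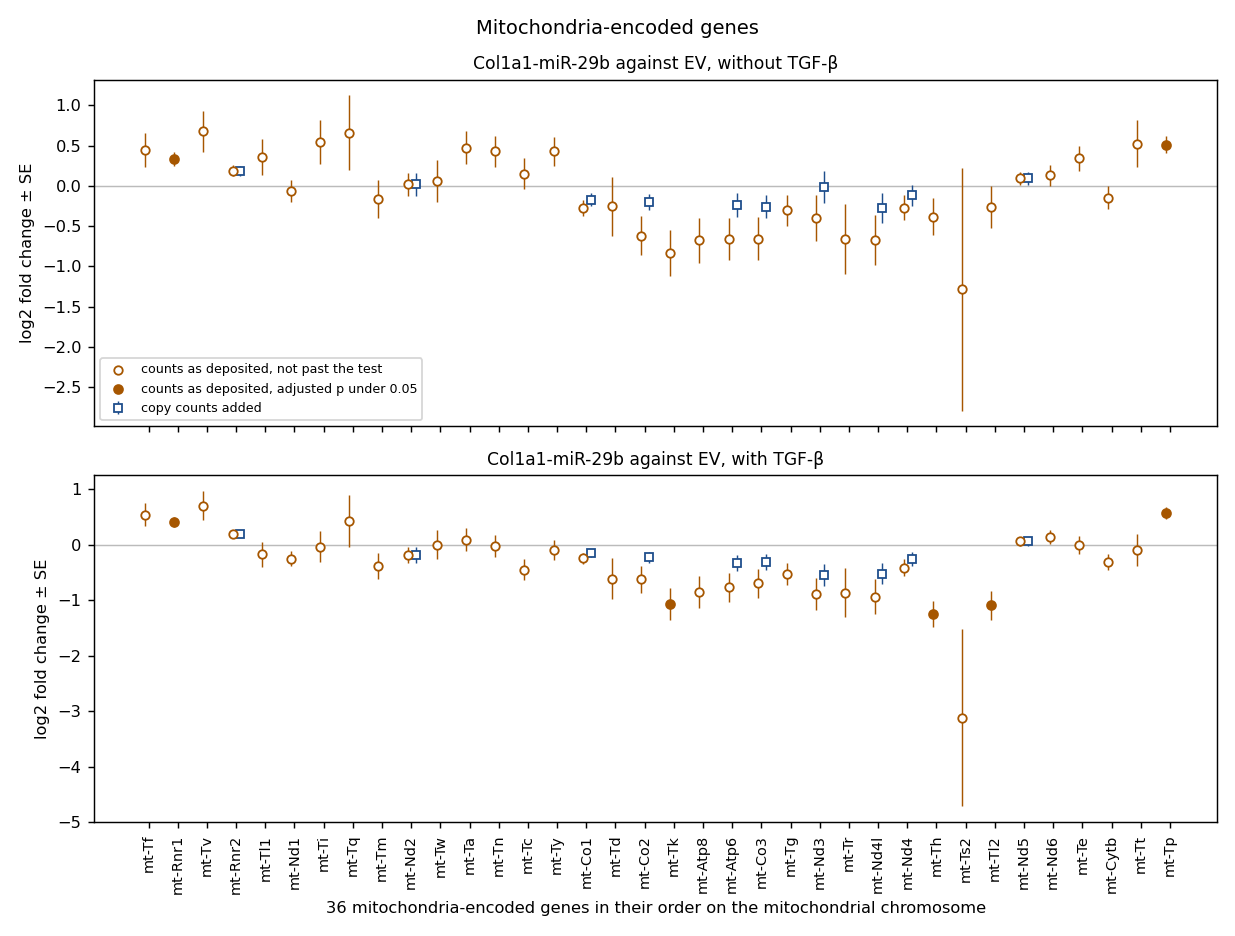
Log2 fold change ± SE of Col1a1-miR-29b against EV (y axis) for 36 mitochondria-encoded genes in chromosomal order (x axis), without TGF-β above and with it below. Circles are counts as deposited, filled where called, and squares have the nuclear copies' counts added. The run of low circles from mt-Co2 to mt-Nd4l, −0.62 to −0.93 with TGF-β for the mRNA genes, lay nearer 0 as squares, from −0.23 to −0.55, except mt-Atp8, which has no square.

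In CMV-miR-29b against EV cells no mitochondria-encoded gene was called by edgeR, with 0 and 8 of 36 at an unadjusted p under 0.05 without and with TGF-β, nor by limma. Of all 21161 genes, 1156 and 2531 had such a p. DESeq2 called 0 without and 3 with TGF-β. The 13 mRNA genes ran from −0.52 to 0.02 without TGF-β and from −0.32 to 0.13 with it as deposited. Without TGF-β, mt-Co2 moved from −0.44 to 0.01 with its copies added. The median of the 13 moved from −0.24 to −0.06 without TGF-β, and with TGF-β it moved the other way, from −0.18 to −0.25.

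The tRNA genes called in Col1a1-miR-29b cells, named because they were called, were few and at low levels. These rows are 59 to 75 bases long and adjoin other mitochondrial genes, so fragments of the neighbours may have been counted with them. The proline tRNA mt-Tp, on the strand opposite to most genes, stood at 11.8, 11.2 and 9.68 CPM in EV cells and 15.3, 15.5 and 15.8 CPM in Col1a1-miR-29b cells. With TGF-β it stood at 10.6, 9.15 and 8.52 CPM against 14.7, 14.3 and 13 CPM. Its log2 fold changes were 0.51 ± 0.11 (adjusted p = 0.0125) and 0.57 ± 0.11 (adjusted p = 0.00312). With terms for length and GC content it was 0.28 without TGF-β, where it was no longer called (adjusted p = 0.212), and 0.59 with it (adjusted p = 0.00975). The gene (mitochondrial chromosome, 15356 to 15422) reads as follows, with its last bases next to the threonine tRNA gene mt-Tt, and ends the run of annotated genes before the control region.
mt-Tp: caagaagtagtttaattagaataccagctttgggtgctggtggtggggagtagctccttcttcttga
The histidine tRNA mt-Th (11546 to 11612) stood at 4.51, 2.35 and 3.9 CPM in EV cells with TGF-β and 1.8, 1.29 and 1.45 CPM in Col1a1-miR-29b cells with TGF-β, or −1.24 ± 0.23 on the log2 scale (adjusted p = 0.00312). The leucine tRNA mt-Tl2 was at −1.09 ± 0.26 (adjusted p = 0.0139) and the lysine tRNA mt-Tk at −1.07 ± 0.29 (adjusted p = 0.0236). Their groups did not overlap either. With terms for length and GC content mt-Th and mt-Tl2 were still called, and mt-Tk was not (−0.95, adjusted p = 0.0596). mt-Tk lies between mt-Co2 and mt-Atp8, and mt-Th and mt-Tl2 between mt-Nd4 and mt-Nd5, and none shared 50 bases with an annotated nuclear gene. Unannotated nuclear sequence, such as that between the chromosome 1 copies of mt-Co2 and mt-Atp6, was not searched. The serine tRNA mt-Ts2, between mt-Th and mt-Tl2, had 2 counts in 8 libraries and 38 to 194 in the other 10, a pattern that its fold change cannot describe.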

How the data were processed

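The series holds 18 poly(A) RNA libraries from MEF cells. Per the methods and labels, the authors trimmed paired-end reads with cutadapt, checked them with FastQC, mapped them with HISAT2 and assembled them with StringTie. The authors deposited whole-number counts per gene, without normalization, and FPKM values, in which 0.0001 stands for 0. The step from assemblies to counts, and any use of strand, is not given in the sources used here. Among low counts, 33.8% to 36.72% per library were multiples of 4, where even spacing gives 25%. The counts may therefore not be plain tallies of reads, and what this does to their error was not tested. The submitters' processing notes name mm9, but the coordinates of 52543 genes were identical to GENCODE release M21 (GRCm38).

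Column names gave each library's sample, except for 1 count column in each Col1a1-miR-29b group, whose letter is in no title. It was used as an unlettered library of its group. The 2 matching FPKM columns were not used, which left 16 libraries with FPKM. No 2 replicates agreed within sampling noise (mean chi-square per gene 38.09 or more).

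Counts were tested with edgeR 4.0.16 in R 4.3.3 (filterByExpr, TMM, 1 mean per group over all 18 libraries, quasi-likelihood F test). DESeq2 1.42.0, limma 3.58.1 on log2(FPKM + 1) and log2(FPKM + 0.1), other scalings and filters, offsets for length and GC content (splines with 4 degrees of freedom), counts divided by 4, a replicate block and leaving out each library were alternatives. Added after seeing the data were fits without the 2 unlettered libraries and with nuclear copies summed. The fit was tested on simulated data.

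Members and lists were chosen with earlier results of these data known. Nuclear-encoded genes were named by a rule: for each comparison the 3 largest rises and falls past the threshold at a mean of at least 1 CPM, or, where fewer than 3 passed, the 3 smallest p. The rule also named the 13 mitochondrial mRNA and 2 rRNA genes, fixed isoform pairs and called genes of the lists. Other names were chosen after their values were seen. Sequences came from RefSeq and GENCODE transcripts.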

Additional observations from a re-analysis of the deposited data

How the results depend on the processing

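Libraries of the same replicate letter, c, d or e, were on average hardly more alike than others. Deviations from the group means correlated by 0.0149 on average over 36 pairs of the same letter, with a range from −0.107 to 0.168. Over 70 pairs of different letters the average was −0.0082. Centring on group means ties the 2 averages to each other. No source used here says whether experiments of the same letter were run together. With a replicate block, which leaves out the unlettered libraries, the nuclear-encoded genes called were 12 for Col1a1-miR-29b against EV with TGF-β, 2 without TGF-β, 1 for TGF-β under the Col1a1-miR-29b plasmid and 2 under CMV-miR-29b. The mitochondria-encoded genes called without TGF-β were 0. The other counts with the block stayed within 1.5 times the reported ones.

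For Col1a1-miR-29b against EV with TGF-β (35 nuclear-encoded genes called), the count was 6 with the groups compared alone, 22 without the unlettered libraries, 6 with offsets for length and GC content and 1 with offsets and the replicate block. Without TGF-β (11 called), it was 4 with the groups alone, 4 without the unlettered libraries, 4 with the offsets, 0 with offsets and block, 7 with limma on either FPKM scale, 6 with a filter of 1 count in any library, 17 with scaling by total counts and 21 with DESeq2. Scaling left the direction of these calls as it was. The 5 mitochondria-encoded genes called with TGF-β became 8 with the groups alone, 3 without the unlettered libraries, 9 with offsets, 2 with offsets and block, 9 with a filter of 10 counts in every library and 11 with DESeq2. The 2 called without TGF-β became 1 with limma on either scale, 1 with a filter of 1 count in any library and 0 without the unlettered libraries.

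For TGF-β in EV cells (3 nuclear-encoded genes called), the count was 1 with the groups alone, 6 with limma on either scale, 6 with DESeq2 size factors, 7 with a filter of 10 counts in every library, 8 with counts divided by 4, and 9 with DESeq2 and with both scalings by total counts. With Col1a1-miR-29b (3 called) it was 1 with the groups alone, without the unlettered libraries, with offsets and block and with limma on log2(FPKM + 0.1). With CMV-miR-29b (4 called) it was 2 with the groups alone and with a filter of 1 count in any library, and 1 mitochondria-encoded gene was called with offsets. For CMV-miR-29b against EV with TGF-β, DESeq2 called 2 nuclear-encoded and 3 mitochondria-encoded genes in place of 0.

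Leaving out 1 library at a time gave, for nuclear-encoded genes, 9 to 30 called for Col1a1-miR-29b against EV with TGF-β and 2 to 5 without it, and 1 to 5, 2 to 3 and 1 to 3 for TGF-β with EV, Col1a1-miR-29b and CMV-miR-29b. The count for TGF-β in EV cells was 1 without its TGF-β replicate e and 5 without its TGF-β replicate d. For mitochondria-encoded genes it gave 3 to 8 with TGF-β (8 without EV replicate d, 3 without EV replicate c or the unlettered library), 0 to 5 without it (5 without the unlettered library, 0 without Col1a1-miR-29b replicate d), 0 to 1 for TGF-β in EV cells and 0 to 1 for CMV-miR-29b against EV with TGF-β, and 0 in the other comparisons. Over these alternatives, 328 of 402 counts stayed within 1.5 times. Calls over all genes under the alternatives are not given here. Of 378 repeats of 18 called fold changes, from 13 genes in 1 to 3 comparisons each, 258 stayed past the threshold, 120 did not and 0 changed direction. The 18 were chosen because they were called, and the fits share most of their libraries. A kept direction therefore adds little. The cause of the changes was not tested, apart from those that follow from fewer libraries or genes. The summed share of mitochondria-encoded genes fell by the rRNA share alone when the 2 rRNA genes were left out. Depth limits the tRNA genes, the called ones having from 50 counts in a library upward, more than the mRNA genes.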
